A study of Homo sapiens with 16 samples.

Results

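The transcription factor NRF2, its repressor KEAP1 and a group of the antioxidant enzymes and transporters that NRF2 is known to switch on were followed in bladder cancer (BC) cells treated with CM-1758, an inhibitor of histone deacetylases. The genes were taken by symbol: NFE2L2, which encodes NRF2, KEAP1, NQO1, HMOX1, GCLM, GCLC, SLC7A11, SRXN1 and TXNRD1. All 9 were among the 35993 gene symbols of the count table, and all 9 passed the filter on low counts that left 21297 genes for testing. The cells were 4 established human BC cell lines, RT112, TCCSUP, J82 and 253J, given as wild type in the labels. Each line was grown for 48 h with CM-1758 at its own IC50, or with vehicle (0.01% DMSO) as control, with 2 libraries from independent experiments in each of the 8 groups. 253J, J82 and RT112 were cultured in DMEM GlutaMAX and TCCSUP in EMEM, so the medium and the cell line cannot be told apart for TCCSUP. The dose was set separately for each line, so responses are compared at each line's own inhibitory concentration and not at a common dose.

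NRF2 is a basic leucine zipper protein that pairs with a small MAF protein and binds antioxidant response elements in front of genes for glutathione synthesis, thiol reduction, quinone reduction and heme breakdown. In resting cells KEAP1 holds NRF2 to a CUL3 ubiquitin ligase and the protein is degraded, and electrophiles or oxidants that modify KEAP1 let NRF2 accumulate. NRF2 is therefore controlled largely as a protein, which RNA counts do not measure, and activating changes in this pathway are known in cancers of the bladder.

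The core of the antioxidant response element was searched in RefSeq promoter windows (GRCh38.p14) as the letters TGACNNNGC, or GCNNNGTCA on the other strand, in the 250 bases before and 50 bases from each annotated start. Windows were given for 7 of the 9 genes, and HMOX1 and SLC7A11 had none. A match was found in 4 of the 10 windows of these genes, belonging to GCLM, KEAP1 and TXNRD1, and in 4687 of all 35116 windows (13.3%). All windows include those of genes not tested here. The 3 matches below are shown because they share most of their letters, and in each the match is in capitals within 29 bases written along the strand of the gene.
GCLM: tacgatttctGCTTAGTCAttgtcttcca
KEAP1: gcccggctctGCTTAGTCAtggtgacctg
TXNRD1: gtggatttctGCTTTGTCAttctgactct
The GCLM stretch lies at chr1:93909446-93909474 on the minus strand, with the match 34 to 26 bases before the start. The KEAP1 stretch lies at chr19:10502784-10502812 on the minus strand, with the match 31 to 23 bases before the downstream of its annotated starts. The TXNRD1 stretch lies at chr12:104286920-104286948 on the plus strand, with the match 102 to 94 bases before its downstream start. GCLM and KEAP1 carried the same 9 letters, GCTTAGTCA. A further KEAP1 match, TGACACGGC, lay in the same window, and the upstream TXNRD1 window held TGACTTCGC and GCTCCGTCA. No match was in the windows of NFE2L2, NQO1, GCLC and SRXN1, which says only that these letters are absent there. A match describes sequence and is no evidence of binding in these cells.

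Total counts ran from 27655401 to 32537104 in the 8 control libraries and from 22506431 to 31547585 in the 8 treated libraries. The treated libraries nevertheless had counts on more genes, 22232 to 24905 against 19532 to 20400. Replicate libraries had a Pearson correlation of 0.983 to 0.991 in log2 CPM (reads of a gene scaled to the normalized total of its library), and those of the J82 control group differed most in counts. Of 20 urothelial and epithelial markers, 19 reached a mean of 1 CPM in the RT112 controls. Only 12 did in the TCCSUP controls, 9 in J82 and 8 in 253J. The keratins KRT8, KRT18 and KRT19 did in all 4 lines, while KRT5, KRT13 and KRT14 were at 0 in the 253J and J82 controls. VIM, a mesenchymal marker, had control means of 1499 CPM in 253J, 296 in J82, 3.85 in TCCSUP and 0.44 in RT112. The uroplakin genes UPK1B, UPK2 and UPK3A, markers of differentiated urothelium, were at 0 in the 253J and J82 controls, while UPK1B reached a mean of 1408 CPM in the RT112 controls. Leukocyte markers summed to 4.13 to 72.7 CPM over the libraries, of which CD68 made up 2.45 to 46.5 CPM as a group mean. In TCCSUP, CD14 had a group mean of 11.1 CPM in control and 7.62 CPM with CM-1758, PTPRC 9.58 and 1.12 CPM, and CD3D 0 and 2.64 CPM. CD14 also reached 3.38 and 4.11 CPM in J82, while MS4A1 was at 0 throughout. In TCCSUP, the summed level of 10 fibroblast and mesenchymal markers was 8556 to 8951 CPM in control and 699 to 776 CPM with CM-1758, and that of 20 urothelial and epithelial markers was 1358 to 1479 and 532 to 621 CPM. The 5 endothelial markers of TCCSUP summed to 194 to 227 CPM in control and 18.3 to 20.3 CPM with CM-1758, mostly TEK in control. In 253J, the urothelial and epithelial markers summed to 3244 to 4388 CPM in control and 1961 to 2441 CPM with CM-1758. In RT112 they summed to 11462 to 12146 and 8507 to 9012 CPM, and in J82 the libraries overlapped. The fibroblast and mesenchymal markers summed to 1338 to 1371 CPM in control and 855 to 922 CPM with CM-1758 in RT112. Their sums were 3664 to 3798 and 2147 to 2302 CPM in J82, and overlapped in 253J. The share of reads on 7 small noncoding RNA genes was also higher with CM-1758 in TCCSUP and 253J. It was 12.4% and 12.1% in control and 19.3% and 21.3% treated in TCCSUP. In 253J it was 11.2% or less in control and 13.9% or more treated. With these RNA genes left out, the number of the 9 genes called was the same in every line, and the part of the marker shifts in the values below was not tested.

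The genes moved in both directions in every line. Genes were called where the quasi-likelihood test of edgeR gave an adjusted p under 0.05. In 253J 6 of the 9 genes were higher and 2 lower with CM-1758, in TCCSUP 4 were higher and 3 lower, in RT112 4 higher and 1 lower, and in J82 4 higher and 2 lower. Over all tested genes, 28.8% were higher and 22.4% lower in 253J, 32% and 22.1% in TCCSUP, 27.4% and 20.2% in RT112, and 24% and 18.5% in J82. For 253J, the median log2 fold change of the 9 genes was 0.86 beside 0.10 over all tested genes, for RT112 0.33 beside 0.12, for J82 0.28 beside 0.047, and for TCCSUP 0.18 beside 0.20. In TCCSUP the median of the group was thus no higher than that of all genes. The study's limits for its gene sets were stricter (a log2 change beyond 2 in either direction, adjusted p under 0.01). They were passed by 3 of the 9 genes in 253J, where 12.9% of all genes passed, by 1 in RT112 (12.8%), 1 in J82 (10.1%) and 0 in TCCSUP (17.5%). These genes were counted with 130 to 159138 reads in each library, so none was near the floor of detection. In bulk RNA, a change in the share of cells that express a gene and a change in RNA per cell cannot be told apart.

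**Figure D1:**
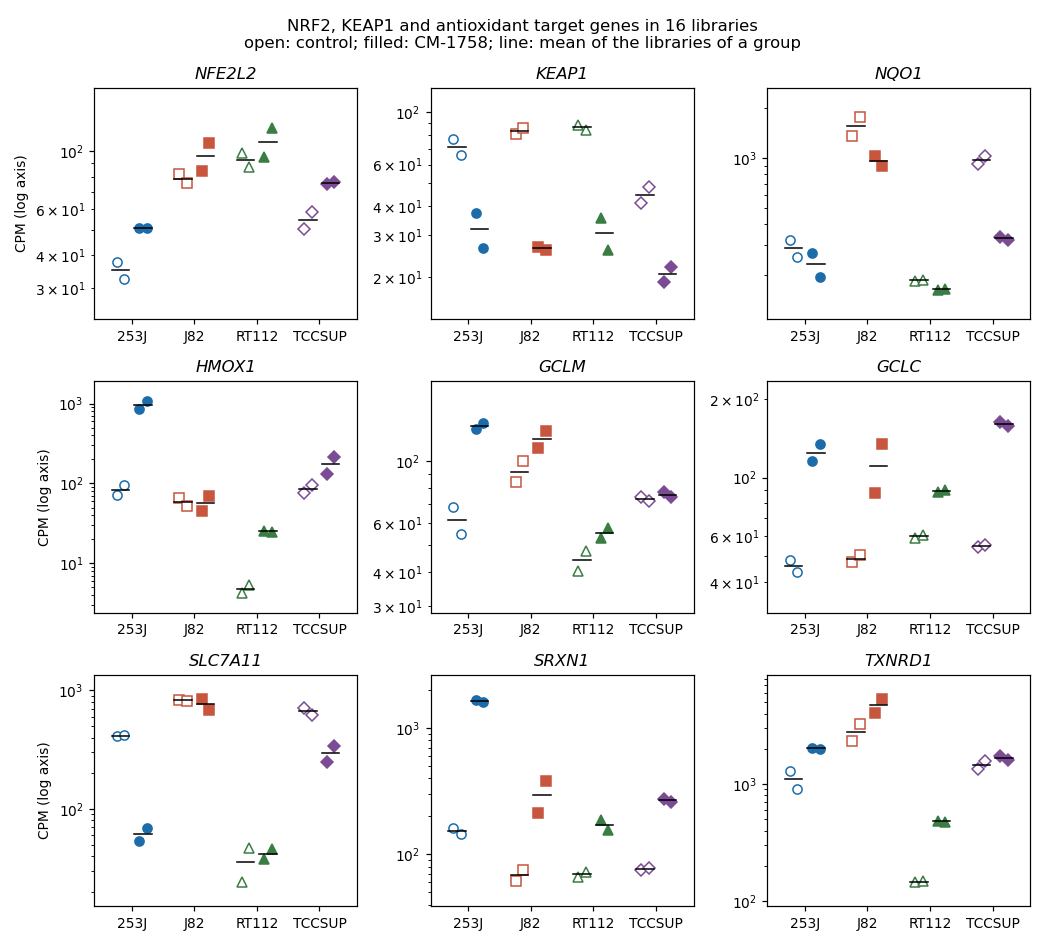
Level in CPM (log axis) of the 9 genes in each of the 16 libraries, by cell line, with open symbols for control, filled symbols for CM-1758 and a line at the mean of the 2 libraries. SRXN1 and GCLC lay higher and KEAP1 lower in the treated libraries of all 4 lines, while HMOX1 and SLC7A11 were called in some lines and not in others.

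KEAP1, the adaptor that presents NRF2 to the ubiquitin ligase, fell in all 4 lines. In 253J, KEAP1 measured 76.8 and 66.0 CPM in the control libraries and 37.5 and 26.6 CPM with CM-1758, a log2 fold change of -1.16 (SE 0.18, adjusted p = 7.61e-05). In J82, KEAP1 measured 81.1 and 85.8 CPM in control and 26.8 and 26.1 CPM with CM-1758, a log2 fold change of -1.66 (SE 0.18, adjusted p = 5.53e-06). Every treated library of these lines lay below every control library. In RT112, KEAP1 measured 88.3 and 84.3 CPM in control and 35.7 and 26.0 CPM with CM-1758, a log2 fold change of -1.48 (SE 0.18, adjusted p = 1.20e-05). In TCCSUP, KEAP1 measured 41.3 and 48.2 CPM in control and 19.1 and 22.2 CPM with CM-1758, a log2 fold change of -1.12 (SE 0.18, adjusted p = 0.000125). The groups were again separate, and the decrease ranged from 2.17-fold in TCCSUP to 3.15-fold in J82. KEAP1 was the only gene of the 9 called lower in all 4 lines, a pattern shared by 6.01% of all tested genes. The test of a difference in response between the lines gave an adjusted p of 0.205 for KEAP1. The call held in each line under all 12 alternatives run.

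NFE2L2, the gene of NRF2 itself, was slightly higher with CM-1758 in 253J and TCCSUP. In 253J, NFE2L2 measured 37.8 and 32.5 CPM in control and 50.7 and 50.8 CPM with CM-1758, a log2 fold change of 0.53 (SE 0.16, adjusted p = 0.0120). In TCCSUP, NFE2L2 measured 50.5 and 58.7 CPM in control and 75.0 and 76.1 CPM with CM-1758, a log2 fold change of 0.47 (SE 0.16, adjusted p = 0.0219). The groups did not overlap in either line. In J82, NFE2L2 measured 81.6 and 75.7 CPM in control and 84.0 and 108 CPM with CM-1758, and the log2 fold change of 0.28 was not called (95% confidence interval -0.053 to 0.62, adjusted p = 0.166). In RT112, NFE2L2 measured 98.7 and 87.6 CPM in control and 94.9 and 123 CPM with CM-1758, and the log2 fold change of 0.23 was not called (95% confidence interval -0.11 to 0.56, adjusted p = 0.251). In RT112 the groups overlapped, and in J82 they were separated only by a small gap. The 4 responses were not told apart by the test of their difference (adjusted p = 0.579). The 253J call was lost without control replicate 3 (log2 fold change 0.42), and the TCCSUP call without control replicate 1 (0.36), CM-1758 replicate 1 (0.47) or CM-1758 replicate 2 (0.46). J82 was called without CM-1758 replicate 1 (0.53), with library size alone (0.43) and with at least 10 counts in every library (0.40). The adjusted p ran from 0.000539 to 0.113 in 253J, from 0.000654 to 0.173 in TCCSUP and from 0.0288 to 0.778 in J82 over the 12 alternatives.

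The ratio of NFE2L2 to KEAP1 counts within a library does not depend on scaling between libraries. The size of this ratio is not comparable between genes, since counts were not divided by transcript length, but its change between groups is. In 253J the ratio was 0.492 in both control libraries and 1.35 and 1.91 with CM-1758. In J82 it was 1.01 and 0.883 in control and 3.13 and 4.12 with CM-1758. In RT112 it was 1.12 and 1.04 in control and 2.66 and 4.74 with CM-1758. TCCSUP had the highest control ratios, 1.22 in both libraries, and 3.93 and 3.44 with CM-1758. From control to treated, the mean ratio went up 3.84-fold in J82, 3.43-fold in RT112, 3.31-fold in 253J and 3.01-fold in TCCSUP, and the groups did not overlap in any line. These ratios are given as a description, with no test.

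**Figure D2:**
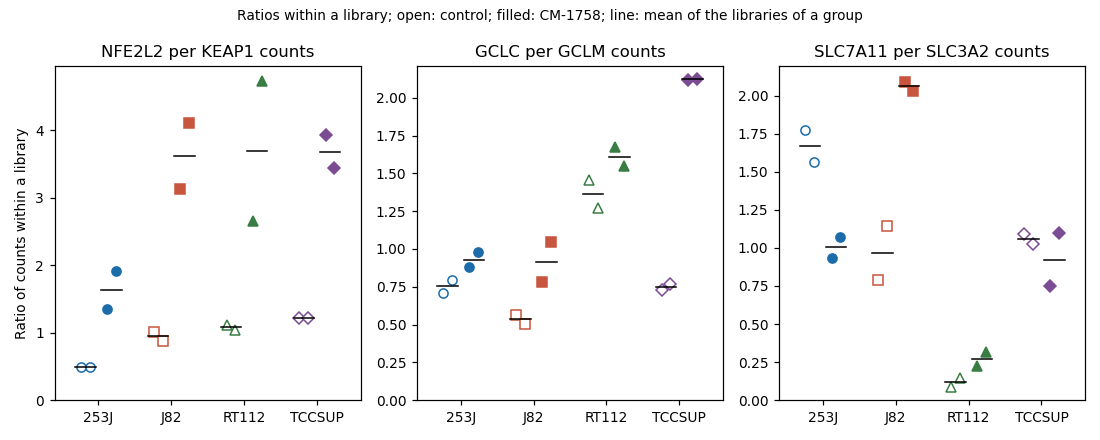
Ratios of raw counts within each library, NFE2L2 per KEAP1, GCLC per GCLM and SLC7A11 per SLC3A2, with open symbols for control, filled symbols for CM-1758 and a line at the mean of the 2 libraries. The treated libraries lie above the controls for the left and middle ratios in all 4 lines, and the ratio at the right rises in J82 and RT112, falls in 253J and overlaps in TCCSUP.

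Glutathione synthesis begins with glutamate-cysteine ligase, which joins glutamate and cysteine and is made of a catalytic subunit, GCLC, and a modifier subunit, GCLM. GCLC rose in all 4 lines, as did 6.69% of all tested genes. In 253J, GCLC measured 48.3 and 43.5 CPM in control and 115 and 134 CPM with CM-1758, a log2 fold change of 1.44 (SE 0.17, adjusted p = 5.47e-06). In J82, GCLC measured 47.5 and 50.5 CPM in control and 87.3 and 135 CPM with CM-1758, a log2 fold change of 1.18 (SE 0.17, adjusted p = 5.75e-05). The treated J82 libraries differed from each other more than those of the other lines, but both lay above the controls. In RT112, GCLC measured 58.9 and 60.4 CPM in control and 88.1 and 89.4 CPM with CM-1758, a log2 fold change of 0.57 (SE 0.17, adjusted p = 0.0107). In TCCSUP, GCLC measured 54.3 and 55.1 CPM in control and 164 and 158 CPM with CM-1758, a log2 fold change of 1.56 (SE 0.17, adjusted p = 2.97e-06). The groups were separate in all 4 lines, and the responses differed between the lines (adjusted p = 0.0106), from 1.49-fold in RT112 to 2.94-fold in TCCSUP. The RT112 call was lost without control replicate 1 (log2 fold change 0.55), control replicate 2 (0.59) or CM-1758 replicate 2 (0.56), with adjusted p from 0.00126 to 0.0689 over the alternatives.

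GCLM, the partner subunit, rose in 253J and J82. In 253J, GCLM measured 68.4 and 54.5 CPM in control and 131 and 137 CPM with CM-1758, a log2 fold change of 1.13 (SE 0.15, adjusted p = 1.44e-05). In J82, GCLM measured 83.9 and 99.9 CPM in control and 112 and 129 CPM with CM-1758, a log2 fold change of 0.39 (SE 0.14, adjusted p = 0.0419). Treated libraries lay above controls in both lines, by a narrow margin in J82. In RT112, GCLM measured 40.4 and 47.5 CPM in control and 52.7 and 57.7 CPM with CM-1758, and the log2 fold change of 0.33 was not called (95% confidence interval 0.016 to 0.64, adjusted p = 0.0781). In TCCSUP, GCLM measured 74.4 and 71.9 CPM in control and 77.4 and 74.3 CPM with CM-1758, and the log2 fold change of 0.053 was not called (95% confidence interval -0.26 to 0.36, adjusted p = 0.790). The RT112 groups were separate and the TCCSUP groups overlapped, and the responses differed between the lines (adjusted p = 0.00291). The J82 call was lost without control replicate 1 (log2 fold change 0.27), without CM-1758 replicate 3 (0.28), with no filter on low counts (0.39) and in a fit of J82 alone (0.40), with adjusted p from 0.00341 to 0.239 over the 12 alternatives. RT112 was called in 6 of the 12 alternatives, with adjusted p from 0.0114 to 0.415, and TCCSUP in 1 (library size alone, log2 fold change 0.36), with adjusted p from 0.0352 to 1.

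Because the subunits moved unequally, the ratio of GCLC to GCLM counts was higher with CM-1758 in every line. The mean ratio went from 0.748 to 2.12 in TCCSUP, a 2.84-fold increase, and from 0.536 to 0.914 in J82, a 1.71-fold increase. It went from 0.752 to 0.928 in 253J (1.23-fold) and from 1.37 to 1.61 in RT112 (1.18-fold). The 2 control libraries lay below the 2 treated libraries in each line. The increase was thus largest in TCCSUP, where GCLM was not called, and these ratios were not tested.

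Cystine for glutathione enters cells through a transporter whose light chain is SLC7A11 and whose heavy chain is SLC3A2. SLC7A11 fell in 253J and TCCSUP. In 253J, SLC7A11 measured 415 and 417 CPM in control and 53.5 and 69.0 CPM with CM-1758, a log2 fold change of -2.76 (SE 0.26, adjusted p = 7.82e-07). In TCCSUP, SLC7A11 measured 717 and 625 CPM in control and 249 and 340.1 CPM with CM-1758, a log2 fold change of -1.19 (SE 0.25, adjusted p = 0.000999). The decrease was 6.79-fold in 253J and 2.28-fold in TCCSUP, and the groups were far apart in both. In J82, SLC7A11 measured 837 and 816 CPM in control and 850.3 and 686 CPM with CM-1758, and the log2 fold change of -0.10 was not called (95% confidence interval -0.63 to 0.42, adjusted p = 0.798). In RT112, SLC7A11 measured 24.1 and 46.6 CPM in control and 37.6 and 45.8 CPM with CM-1758, and the log2 fold change of 0.24 was not called (95% confidence interval -0.30 to 0.78, adjusted p = 0.464). The groups overlapped in these lines, and the responses differed between the lines (adjusted p = 3.00e-05). The RT112 value depended on the control libraries, at -0.16 without control replicate 1 and 0.79 without control replicate 2, where it was called, with adjusted p from 0.0213 to 0.910 over the alternatives. The J82 value was above 0 with library size alone (0.044), with at least 10 counts in every library (0.0075) and without CM-1758 replicate 3 (0.042).

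SLC3A2, which also serves other amino acid transporters, fell in all 4 lines, with log2 fold changes of -2.04 in 253J, -1.26 in J82, -0.98 in TCCSUP and -0.92 in RT112. The light chain and the heavy chain thus fell together in 253J and TCCSUP, whereas in J82 and RT112 the heavy chain alone was called. The ratio of SLC7A11 to SLC3A2 counts went from 1.67 to 1.00 in 253J and from 1.06 to 0.922 in TCCSUP, where the libraries overlapped. It went from 0.965 to 2.06 in J82 and from 0.118 to 0.272 in RT112, with no overlap.

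Hydrogen peroxide is reduced by peroxiredoxins at the expense of thioredoxin, thioredoxin reductase (TXNRD1) restores thioredoxin with NADPH, and sulfiredoxin (SRXN1) repairs peroxiredoxins that were oxidized too far. SRXN1 rose in all 4 lines. In 253J, SRXN1 measured 163 and 145 CPM in control and 1686 and 1614 CPM with CM-1758, a log2 fold change of 3.42 (SE 0.23, adjusted p = 4.64e-08). In J82, SRXN1 measured 61.1 and 75.6 CPM in control and 212 and 385 CPM with CM-1758, a log2 fold change of 2.12 (SE 0.22, adjusted p = 3.39e-06). The treated 253J libraries agreed closely, and the treated J82 libraries lay far apart but above the controls. In RT112, SRXN1 measured 66.0 and 72.6 CPM in control and 188 and 156 CPM with CM-1758, a log2 fold change of 1.31 (SE 0.22, adjusted p = 0.000179). In TCCSUP, SRXN1 measured 75.0 and 78.0 CPM in control and 275 and 262 CPM with CM-1758, a log2 fold change of 1.81 (SE 0.22, adjusted p = 8.08e-06). The increase ranged from 2.48-fold in RT112 to 10.7-fold in 253J, and it differed between the lines (adjusted p = 0.000271). The calls of SRXN1 held in each line under all 12 alternatives. In GENCODE v29, 2292 of the 2698 exon bases of SRXN1 are shared with AL121758.1 on the same strand, a gene model that is absent from the count table under that name, so reads of these models cannot be told apart.

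TXNRD1 rose in 253J, J82 and RT112. In 253J, TXNRD1 measured 1304 and 917 CPM in control and 2024 and 2015 CPM with CM-1758, a log2 fold change of 0.86 (SE 0.20, adjusted p = 0.00214). In J82, TXNRD1 measured 2341 and 3236 CPM in control and 4049 and 5387 CPM with CM-1758, a log2 fold change of 0.76 (SE 0.20, adjusted p = 0.00648). The controls of these lines varied among themselves, but no control library reached a treated one. In RT112, TXNRD1 measured 144 and 148 CPM in control and 485 and 478 CPM with CM-1758, a log2 fold change of 1.72 (SE 0.21, adjusted p = 9.84e-06). In TCCSUP, TXNRD1 measured 1359.5 and 1576 CPM in control and 1723 and 1604 CPM with CM-1758, and the log2 fold change of 0.18 was not called (95% confidence interval -0.24 to 0.61, adjusted p = 0.468). The change was 3.29-fold in RT112, the line with the lowest control level, and the responses differed between the lines (adjusted p = 0.00279). The J82 call was lost without control replicate 1 (0.54), without CM-1758 replicate 3 (0.54) and in a fit of J82 alone (0.77), with adjusted p from 7.11e-05 to 0.102 over the alternatives. TCCSUP was called with library size alone (0.49), with adjusted p from 0.0366 to 0.858 over the alternatives.

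HMOX1 is the inducible heme oxygenase that breaks heme down to biliverdin, iron and carbon monoxide. Its log2 fold change ranged more widely between the lines than that of any of the other 8 genes. In 253J, HMOX1 measured 72.2 and 94.96 CPM in control and 863 and 1084 CPM with CM-1758, a log2 fold change of 3.54 (SE 0.27, adjusted p = 1.17e-07). In RT112, HMOX1 measured 4.25 and 5.42 CPM in control and 25.3 and 25.0 CPM with CM-1758, a log2 fold change of 2.38 (SE 0.28, adjusted p = 8.36e-06). These are increases of 11.6-fold and 5.20-fold, and the treated level in RT112 stayed below the control level of every other line. In TCCSUP, HMOX1 measured 75.8 and 96.6 CPM in control and 132 and 217 CPM with CM-1758, a log2 fold change of 1.01 (SE 0.25, adjusted p = 0.00309). In J82, HMOX1 measured 66.0 and 53.0 CPM in control and 45.9 and 68.8 CPM with CM-1758, and the log2 fold change of -0.053 was not called (95% confidence interval -0.58 to 0.48, adjusted p = 0.934). The J82 groups overlapped, and the responses differed between the lines (adjusted p = 7.19e-06). The TCCSUP call was lost without CM-1758 replicate 2 (0.61), with adjusted p from 0.000231 to 0.0733 over the alternatives. The sign of the J82 value turned under RLE normalization (0.036), with library size alone (0.085), with at least 10 counts in every library (0.058), in DESeq2 (0.038) and without control replicate 1 (0.11) or CM-1758 replicate 1 (0.29).

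NQO1, the quinone reductase often used as a readout of NRF2 activity, fell in J82 and TCCSUP and was called higher in no line. In TCCSUP, NQO1 measured 924 and 1028 CPM in control and 338 and 322 CPM with CM-1758, a log2 fold change of -1.57 (SE 0.18, adjusted p = 6.17e-06). In J82, NQO1 measured 1348 and 1760.2 CPM in control and 1026 and 897 CPM with CM-1758, a log2 fold change of -0.69 (SE 0.18, adjusted p = 0.00615). Treated libraries lay below controls in both lines, 2.96-fold in TCCSUP and 1.62-fold in J82. In 253J, NQO1 measured 322 and 256 CPM in control and 270.5 and 193 CPM with CM-1758, and the log2 fold change of -0.32 was not called (95% confidence interval -0.71 to 0.066, adjusted p = 0.156). In RT112, NQO1 measured 183 and 187 CPM in control and 163 and 164 CPM with CM-1758, and the log2 fold change of -0.18 was not called (95% confidence interval -0.57 to 0.21, adjusted p = 0.441). The 253J groups overlapped, the RT112 groups were separate by a small gap, and the responses differed between the lines (adjusted p = 0.00147). The J82 call was lost without control replicate 3 (-0.49), without CM-1758 replicate 3 (-0.60) and in a fit of J82 alone (-0.68), with adjusted p from 0.00233 to 0.0893. 253J was called lower without CM-1758 replicate 1 (-0.58), with adjusted p from 0.0323 to 0.880 over the alternatives.

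**Figure D3:**
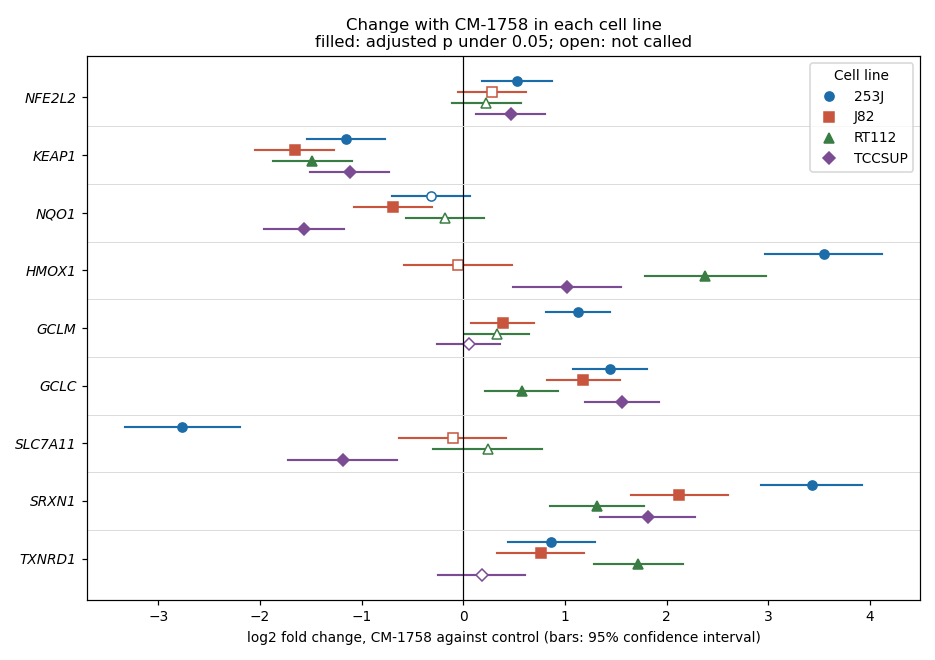
Log2 fold change of CM-1758 against control for the 9 genes in each cell line, with bars for the 95% confidence interval, filled symbols for adjusted p under 0.05 and open symbols for values not called. HMOX1 runs from -0.053 in J82 to 3.54 in 253J, while the values of KEAP1 lie between -1.66 and -1.12.

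Side by side, the lines did not respond alike. The test of a difference in response passed for 7 of the 9 genes, NQO1, HMOX1, GCLM, GCLC, SLC7A11, SRXN1 and TXNRD1, and for 51.9% of all tested genes. 253J had the largest change of HMOX1, SRXN1, GCLM and SLC7A11. RT112 had the largest change of TXNRD1 and the smallest increase of GCLC and SRXN1. TCCSUP had the largest decrease of NQO1 and the largest increase of GCLC, and J82 alone had no called change of HMOX1. SLC7A11 was called in neither J82 nor RT112. SRXN1 and TXNRD1, which act in the same cycle, were ordered differently by line, since SRXN1 rose most and TXNRD1 only moderately in 253J.

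The lines also differed before treatment. Control levels differed between the lines for 8 of the 9 genes, and for 78.8% of all tested genes, with GCLC the exception (adjusted p = 0.181). NQO1, GCLM, SLC7A11 and TXNRD1 followed 1 order, highest in J82, then TCCSUP, 253J and RT112, with no overlap between neighbours. The share of all tested genes with such an order or such separation was not counted. From the highest to the lowest line, control levels spanned 23.4-fold for SLC7A11, 19.1-fold for TXNRD1, 8.40-fold for NQO1 and 2.09-fold for GCLM. HMOX1 spanned 17.8-fold, from TCCSUP down through 253J and J82 to RT112, and its TCCSUP and 253J libraries overlapped. RT112, lowest for these 5 genes, was highest for NFE2L2, followed by J82, TCCSUP and 253J over a 2.65-fold span with no overlap between neighbours. KEAP1 ran from RT112 through J82 and 253J to TCCSUP over a 1.93-fold span, with overlap between RT112 and J82. SRXN1 was highest in 253J, then TCCSUP, RT112 and J82, over 2.25-fold, and its RT112 and J82 libraries overlapped. GCLC spanned 1.30-fold, from RT112 through TCCSUP and J82 to 253J, and its J82 and 253J libraries overlapped.

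With CM-1758, the order of NFE2L2, NQO1 and SLC7A11 was as in the controls, although the treated NFE2L2 libraries of RT112 and J82 overlapped. For HMOX1 and SRXN1 the span widened, to 38.7-fold and 9.59-fold, with 253J highest for both. For TXNRD1 it narrowed to 9.80-fold, from J82 through 253J and TCCSUP to RT112, and for KEAP1 to 1.55-fold, with overlap among 253J, RT112 and J82. GCLC was highest in TCCSUP and GCLM in 253J under treatment, over spans of 1.81-fold and 2.43-fold.

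Other genes of the pathway were described from 9 lists written from general knowledge, with earlier results of these data known. The lists held 106 genes, all of them tested. In 253J 33 of them (31.1%) were higher and 32 (30.2%) lower, and in J82 33 (31.1%) and 31 (29.2%), beside 28.8% and 22.4% of all tested genes in 253J and 24% and 18.5% in J82. In RT112 27 (25.5%) were higher and 36 (34.0%) lower, and in TCCSUP 23 (21.7%) and 41 (38.7%), beside 27.4% and 20.2% of all tested genes in RT112 and 32% and 22.1% in TCCSUP. The median log2 fold change over the lists was 0.021 in 253J, 0.044 in J82, -0.095 in TCCSUP and -0.11 in RT112, below the medians of all tested genes given above. The split depended on scaling. With library size alone, which raised the median of all genes by 0.31 in TCCSUP, 0.27 in 253J, 0.15 in RT112 and 0.15 in J82 on the log2 scale, 42 were higher and 27 lower in 253J, 31 and 27 in RT112, and 40 and 27 in TCCSUP.

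Among the partners, repressors and degradation factors of NRF2 (16 genes), 6 were higher and 8 lower in 253J (7 and 6 with library size alone), 4 and 7 in J82, 5 and 5 in RT112, and 2 and 5 in TCCSUP (8 and 3 with library size alone). SQSTM1, the autophagy receptor that binds KEAP1, went from 652 ± 30.7 to 5747 ± 27.8 CPM (SD, n = 2) in 253J, a log2 fold change of 3.14. SQSTM1 also rose in RT112 (1.06) and TCCSUP (0.92), while its J82 value of -0.22 was not called (adjusted p = 0.398). HMOX1 was likewise called in 253J, RT112 and TCCSUP and not in J82, and a link between these genes was not tested. MAFK, a small MAF partner of NRF2, rose in all 4 lines, by 0.93 to 1.25 on the log2 scale. RBX1, the RING subunit of the CUL3 ligase, and DPP3 and AMER1, which bind KEAP1, fell in all 4 lines, although RBX1 and AMER1 lost that with library size alone.

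In the list of glutathione synthesis, use and recycling (24 genes), 11 were higher and 5 lower in 253J, 9 and 8 in J82, 6 and 7 in RT112 (7 and 6 with library size alone), and 7 and 9 in TCCSUP (8 and 7 with library size alone). GSS, the enzyme that completes glutathione, fell in all 4 lines, by 0.46 in J82 to 1.14 in RT112 on the log2 scale, opposite to GCLC, although not in all 4 with library size alone. The microsomal glutathione transferases MGST1 and MGST2 fell in all 4 lines, MGST1 from 335 ± 17.2 to 37.0 ± 8.25 CPM (SD, n = 2) in TCCSUP. GPX8, a peroxidase of the endoplasmic reticulum, fell from 405 ± 8.70 to 42.2 ± 3.79 CPM in 253J and was lower in all 4 lines, again not with library size alone. GSTA4, which conjugates lipid aldehydes, rose in all 4 lines, by 1.35 in TCCSUP to 4.41 in RT112, where its control counts were 4 and 5. GSTA1 was at 0 counts in the TCCSUP controls and at 39 and 47 counts with CM-1758, at least 14.2-fold higher against a floor of 3 counts per library, but reads of the near-identical GSTA genes may have been split among them.

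In the thioredoxin and peroxiredoxin list (14 genes), 2 were higher and 6 lower in 253J, 2 and 5 in J82 (3 and 4 with RLE or library size alone), 3 and 5 in RT112, and 3 and 6 in TCCSUP (5 and 3 with library size alone). PRDX1, a substrate of SRXN1, rose in all 4 lines by 0.98 to 1.22 on the log2 scale, and its treated J82 libraries held 33799 and 68300 counts. SESN3, a sestrin, rose in all 4 lines, with 4 and 0 counts in the TCCSUP controls and 789 and 698 counts with CM-1758. PRDX4, the peroxiredoxin of the endoplasmic reticulum, fell in 253J (-1.75), RT112 (-1.34) and TCCSUP (-0.46), and in 2 of these lines with library size alone.

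Of the enzymes of NADPH supply (9 genes), 3 were higher and 4 lower in 253J (4 and 3 with library size alone), 2 and 3 in J82, 1 and 6 in RT112 (2 and 6 with RLE, 2 and 4 with library size alone), and 1 and 6 in TCCSUP (2 and 2 with library size alone). TKT, an enzyme of the pentose phosphate pathway, fell in 253J (-1.76), RT112 (-0.74) and TCCSUP (-1.43). ME1, the cytosolic malic enzyme, was at 0 counts in the 253J controls and at 42 and 75 counts with CM-1758, at least 18.8-fold higher, and rose by 0.96 in J82.

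In the list of quinone, carbonyl and xenobiotic metabolism (16 genes), 4 were higher and 3 lower in 253J (6 and 2 with library size alone), 7 and 4 in J82, 5 and 6 in RT112 (6 and 4 with library size alone), and 5 and 7 in TCCSUP. CBR1, a carbonyl reductase, rose in all 4 lines, by 0.56 in RT112 to 1.42 in TCCSUP. CYP4F11, a fatty acid hydroxylase, rose in all 4 lines, from 0 counts in the J82 controls to 64 and 47, at least 17.4-fold higher. UGDH, which makes UDP-glucuronate, fell in 253J (-1.62), J82 (-1.21) and TCCSUP (-2.41).

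In the heme and iron list (8 genes), 2 were higher and 1 lower in 253J (4 and 1 with library size alone), 4 and 0 in J82, 3 and 3 in RT112 (3 and 1 with library size alone), and 2 and 1 in TCCSUP (5 and 1 with library size alone). SLC40A1, the iron exporter ferroportin, rose in J82 (4.52) and TCCSUP (5.09), fell in RT112 (-1.26, not called with library size alone) and had 0 counts in all 253J libraries. TFRC, the transferrin receptor, fell in 253J (-1.07), RT112 (-0.51) and TCCSUP (-0.85), and in 2 of these lines with RLE or library size alone. Among the efflux transporters (6 genes), 1 was higher and 3 lower in 253J, 0 and 1 in J82, 1 and 1 in RT112, and 0 and 3 in TCCSUP (1 and 2 with library size alone). ABCC3 fell in 253J (-1.42), J82 (-1.59) and TCCSUP (-1.77), while ABCG2 rose in 253J (2.12) and fell in RT112 (-0.97) and TCCSUP (-0.98), 1 of these decreases being lost with library size alone.

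Of the other known targets (8 genes), 3 were higher and 2 lower in 253J, 3 and 2 in J82, 2 and 2 in RT112 (3 and 1 with RLE or library size alone), and 2 and 4 in TCCSUP (4 and 3 with library size alone). OSGIN1, an oxidative stress response gene, rose in all 4 lines by 1.18 to 1.68, and LUCAT1, a long noncoding RNA, rose by 2.07 in J82 to 4.47 in 253J. SLC6A9, a glycine transporter, fell in 253J (-3.93), J82 (-1.38) and TCCSUP (-4.40). Among the superoxide and peroxide enzymes (5 genes), 1 was higher and 0 lower in 253J, 2 and 1 in J82, 1 and 1 in RT112 (1 and 0 with RLE or library size alone), and 1 and 0 in TCCSUP. SOD1, the cytosolic superoxide dismutase, fell in J82 (-0.92) and RT112 (-0.49), and in 1 of these lines with RLE or library size alone. SOD3, the extracellular one, was called higher in J82 (2.20) and in RT112, at least 3.08-fold there against a floor of 3 counts per library. Its TCCSUP value of -0.95 was not called. SOD3 had 0 counts in all 253J libraries and at most 49 counts elsewhere.

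Of the 106 listed genes, 9 rose in all 4 lines, among them MAFK, GSTA4, PRDX1, SESN3, CBR1, CYP4F11, OSGIN1 and LUCAT1. In all 4 lines 8 fell (RBX1, DPP3, AMER1, GSS, GPX8, SLC3A2, MGST1 and MGST2). Over the 21297 tested genes, 1425 (6.69%) rose and 1281 (6.01%) fell in all 4 lines. The counts of the lists lay only a little above these shares and were not tested against them. All 9 and all 8 held under RLE normalization. With library size alone, the 9 held and 4 of the 8 did. GCLC and SRXN1 rose in every line, as did PRDX1, CBR1 and OSGIN1, in the same libraries in which GSS, MGST1 and SLC3A2 fell.

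**Figure D4:**
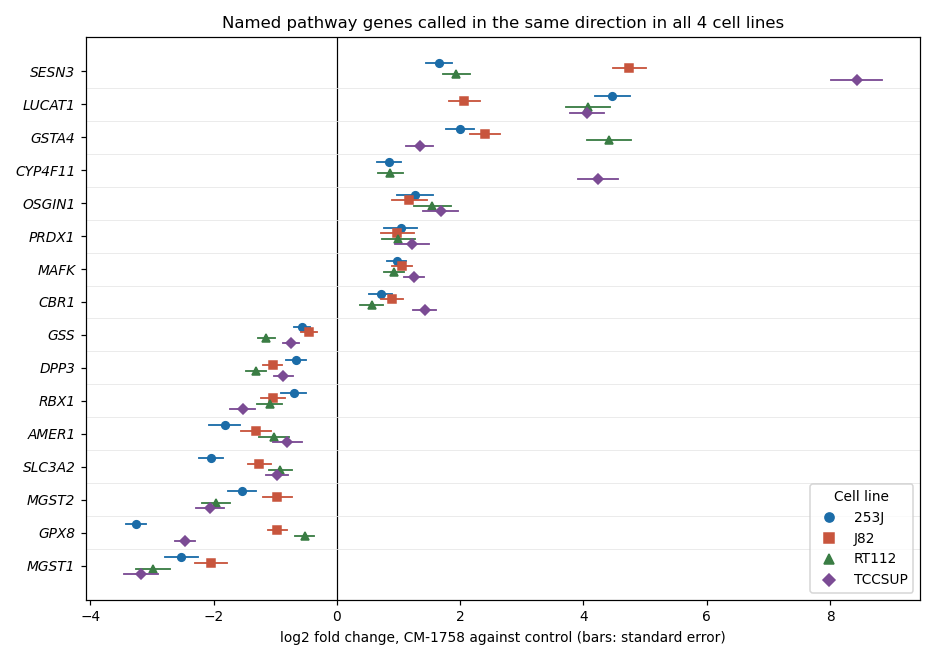
Log2 fold change of CM-1758 against control, with bars for the standard error, of the other pathway genes named in the text that were called in the same direction in all 4 cell lines. CYP4F11 in J82 is left out because its control counts were 0, and the SESN3 point of TCCSUP rests on control counts of 4 and 0.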

How the data were processed

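RNA was extracted from 2 independent experiments per group and sequenced as stranded total RNA libraries after ribosomal RNA depletion. The authors deposited 1 table of raw counts, whole numbers of reads per gene symbol in the 16 libraries, without normalization. The submitters' processing notes name HISAT2, StringTie and GRCh37, and the counting tool and its strand setting are not given in the sources used here. All 16 columns matched a sample label.

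Low counts were removed with filterByExpr (8 groups), and the rest normalized by TMM and fitted in 1 model of 8 group means with the quasi-likelihood test of edgeR 4.0.16 (R 4.3.3), with 8 residual degrees of freedom and a common biological coefficient of variation of 0.153. P-values were adjusted by Benjamini-Hochberg over the 21297 tested genes within each line, with calls at 0.05, and measure only the spread between these libraries. Differences between lines were F tests of 3 contrasts. CPM use TMM-scaled totals, errors are SD over 2 libraries or standard errors, and the code was tested on simulated data.

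Alternatives were library size alone, RLE normalization, small noncoding RNA genes left out, no filter, at least 10 counts in every library, the replicate number as a block, each line alone, DESeq2 1.42.0, the study's limits, and each library left out, in which the lone library is assumed to vary like the other groups. The 12 alternatives counted for a gene in a line are these without the study's limits, leaving out only libraries of that line. For 253J the replicate block among them compares only 1 control library with 1 treated library. The genes, lists and tests were chosen with earlier results of these data known. Named were the 9 genes, each listed gene called in the same direction in 4 lines, and in each list the called gene with the highest and the lowest mean log2 fold change, and 2 genes given by the rules for names and likeness are not reported here. Promoter sequences and coordinates are those of RefSeq on GRCh38.p14, a build other than that of the counts, and overlaps are from GENCODE v29. Some exon bases of NFE2L2, NQO1, GCLC and SLC7A11 also lie in other gene models.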

Additional observations from a re-analysis of the deposited data

Results flagged for a closer look

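The response to CM-1758 differed between the cell lines by edgeR's F test, with Benjamini-Hochberg adjustment over all tested genes, for 7 genes. The adjusted p was 0.00147 for NQO1, 7.19e-06 for HMOX1, 0.00291 for GCLM, 0.0106 for GCLC, 3.00e-05 for SLC7A11, 0.000271 for SRXN1 and 0.00279 for TXNRD1. HMOX1 ranged from -0.053 in J82 to 3.54 in 253J on the log2 scale, and SLC7A11 from -2.76 in 253J to 0.24 in RT112. The same test passed for 51.9% of all tested genes, and 7 of the 9 genes passed under every alternative run for it. The reason for the differences was not tested.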

How the results depend on the processing

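With the study's limits the number of genes called fell from 8 to 3 in 253J, 6 to 1 in J82, 5 to 1 in RT112 and 7 to 0 in TCCSUP, and in a fit of J82 alone to 3. Leaving out each library gave 7 to 9 called genes in 253J, 3 to 7 in J82 (3 without CM-1758 replicate 3), 4 to 5 in RT112 and 5 to 7 in TCCSUP. HMOX1 in J82 turned to 0.036 (RLE normalization), 0.085 (library size alone), 0.058 (at least 10 counts in every library) and 0.038 (DESeq2), and ran from -0.37 to 0.29 with libraries left out. SLC7A11 in J82 turned to 0.044 (library size alone) and 0.0075 (at least 10 counts in every library), and ran from -0.19 to 0.042 with libraries left out, and SLC7A11 in RT112 from -0.16 to 0.79. The cause was not tested. The other counts stayed within 1.5 times under the other alternatives. Of the values of single genes under alternatives other than leaving out a library, 268 kept their direction and call, 4 lost a call, 10 gained one and 6 turned. With library size alone, over all tested genes, 7752 were higher and 3570 lower in 253J (6134 and 4781 with TMM) and 8898 and 3137 in TCCSUP (6808 and 4710). The labels give replicate numbers but do not say what a number marks, and deviations of same-numbered libraries correlated at 0.218 in J82, 0.0427 in RT112 and 0.0173 in TCCSUP, while 253J shares 1 number, so the numbers were not taken to pair the libraries. With the replicate number as a block, 6 genes were called in J82, 6 in RT112 (GCLM in addition, 0.33, adjusted p = 0.0183) and 7 in TCCSUP. In 253J the block sets control replicate 3 against CM-1758 replicate 3 alone, so it rests on 1 library a group there. With 2 libraries a group, small changes such as those of NFE2L2 are at the limit of detection.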

Other observations

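Over the 16 libraries, which share cell lines and treatment, the closest pairs among the 9 genes in log2 CPM were GCLM and TXNRD1 (Pearson r = 0.871), NQO1 and SLC7A11 (0.870), HMOX1 and SRXN1 (0.763), HMOX1 and GCLM (0.752) and SLC7A11 and TXNRD1 (0.749), and KEAP1 and GCLC were the most opposed (-0.876). The tested genes most like the genes of the group, of 14201 searched, were CRY2 (0.956) for NFE2L2, DDX54 (0.969) for KEAP1, ILK (0.976) for NQO1, VAMP7 (0.958) for GCLM, FBXO33 (0.968) for GCLC, DCK (0.953) for SLC7A11, IFT22 (0.973) for SRXN1 and TAF10 (0.960) for TXNRD1. The next were IGFL2-AS1 (0.954), TCF25 (0.960), ZBTB18 (0.970), RNF41 (0.955), PJA2 (0.962), DGKE (0.950), CCDC125 (0.966) and NCAM2 (0.960), in the same order. For HMOX1, PIP4P2 reached 0.949. These are the highest of many correlations and are given as a description.

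The letters TGACNNNGC or GCNNNGTCA were in promoter windows of 26 of the 89 other pathway genes that had 1 (29.2%), beside 16.1% of all genes with a window. By window, they were in 26 of the 127 of these pathway genes (20.5%), beside 13.3% of all windows. The sets are unlike, since the pathway genes all passed the filter on low counts and the others were not limited to tested genes. The difference was not tested.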
